A study of Homo sapiens with 4 samples.

Results

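The genes described here are 55 components of the bone morphogenetic protein (BMP) and transforming growth factor beta (TGF-beta) pathways, taken by symbol from 64252 gene rows of a count table. All 55 symbols matched 1 row each. The list holds ligands, proteins that process or store them, extracellular antagonists, receptors, SMAD proteins, feedback regulators and a small set of target transcription factors. By the receptors and SMADs they use, 23 were placed in the BMP branch, 24 in the TGF-beta and activin branch (called the TGF-beta branch), and 8 in both branches or in neither. The cells were SK-N-BE(2), an established human neuroblastoma line. One group carried a scramble short hairpin RNA (shRNA) and the other an shRNA against IRF2BP2, a transcriptional co-regulator, with 2 libraries in each group. Both groups share the cell line and the shRNA delivery, described as transfection, and the labels name neither the hairpin sequence nor a second hairpin, so the comparison rests on 1 cell line and 1 named target. The comparison asks which of these pathway transcripts differ when IRF2BP2 is lowered.

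In both branches a dimeric ligand brings together type I and type II serine-threonine kinase receptors, and the type I receptor phosphorylates receptor-regulated SMADs, which enter the nucleus with SMAD4. BMP ligands act mainly through SMAD1, SMAD5 and SMAD9, and TGF-beta and activin ligands mainly through SMAD2 and SMAD3. SMAD6, SMAD7 and BAMBI are inhibitors that are themselves induced by the pathway, so their transcripts and those of the ID genes are widely used as readouts of signalling. BMP signals help to specify the sympathetic neurons and chromaffin cells of the neural crest, the lineage from which neuroblastoma arises.

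Total counts lay between 30847699 and 34684651 per library, and mitochondrially encoded genes held 7.27% and 7.10% of the counts with scramble and 6.42% in each library with the IRF2BP2 shRNA. Levels are given as CPM, counts relative to the total of each library with scaling by trimmed mean of M values (TMM), in the order scramble replicates 1 and 2. Values of the IRF2BP2 shRNA libraries follow in the same order. IRF2BP2 itself had 243 and 238 CPM with scramble and 89.6 and 87.5 CPM with its shRNA (2.72-fold lower, edgeR adjusted p = 5.87e-10). All 15 neuroblastoma markers had counts, and their summed level was 9866 and 10304 CPM with scramble and 9773 and 9915 CPM with the shRNA. Of these 15, 10 were lower, 3 were higher and 2 were not called. The 10 fibroblast and mesenchyme markers, of which FAP was at 0, summed to 565 and 549 CPM against 454 and 449 CPM. Summed levels of endothelial, immune, epithelial and Schwann or glial markers lay at or under 7.74 CPM in every library, with PECAM1, CD3E, LYZ, KRT5, KRT14 and FOXD3 at 0. Nothing in the labels says that the 2 libraries of a group came from separate cultures, so each p-value reflects the variation among these 4 libraries and no more, and that variation may be technical. These are bulk samples, in which fewer cells of a type and less RNA per cell cannot be told apart.

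Of the 55 members, 51 passed the filter on low counts and were tested, and 40 of them (78.4%) changed with the IRF2BP2 shRNA, where "changed" means an edgeR quasi-likelihood p under 0.05 after Benjamini-Hochberg adjustment over all 19093 genes tested. The same rule called 42.0% of all genes tested. That share depends on level: at a mean of at least 10 CPM, 2973 of 10383 genes were higher and 3161 lower, a larger share. At that level 13 of 15 BMP branch members were higher and 2 lower. In the TGF-beta branch 3 of 12 were higher and 3 lower, no larger shares than over all genes at that level. In both or neither, 4 of 7 were higher and 2 lower. Of all 51 members tested, 28 were called higher and 12 lower, against 20.6% and 21.4% of all genes. The members were chosen with earlier results of these data known, so comparisons with all genes describe the list and test nothing. The median log2 fold change was 0.24 over the members and -0.01 over all genes tested, and the median absolute log2 fold change was 0.49 against 0.31. At least 4-fold rises were called for 9 members, a size of rise seen in 1.06% of all genes tested, and no member was at least 4-fold lower (1.94% of all genes). At least 2-fold changes were called for 13 members upward (2.95% of all genes) and 4 downward (6.75%). The groups did not overlap for 29 members that lay higher and 18 that lay lower, against 34.4% and 36.0% of all genes. The members called lower, at least 2-fold lower, or lying lower without overlap were thus shares near those of all genes. Of the 28 risers, 26 would have passed the filter through the scramble libraries alone, and BMP6 and CHRD passed only through the IRF2BP2 shRNA group. Both are among the 13 members at least 2-fold and the 9 at least 4-fold higher, so those counts rest in part on that filter. Without each of the 4 libraries in turn, 27 of the 40 calls held, and the other 13 are pointed out where the gene is described.

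The branches differed in their counts. All 21 tested BMP branch members were called, 16 higher (with BMP6 and CHRD among them) and 5 lower, and their median log2 fold change was 0.42. Of the 22 tested TGF-beta branch members, 7 rose, 6 fell and 9 did not pass, and the median was -0.12. Among the 8 members of both branches or neither, 5 rose, 1 fell and 2 were not called (median 0.54). Over all genes tested, 20.6% were higher and 21.4% lower, and both shares were larger at a mean of at least 10 CPM. The 5 lower calls of the BMP branch were near the 21.4%. The difference between the branches was not tested, and the branches were drawn up with earlier results of these data known. The lower calls were the less stable part, with 5 in the BMP branch becoming 3 without IRF2BP2 shRNA replicate 1. Of the 6 in the TGF-beta branch, leaving out scramble replicate 2 left 2, and leaving out IRF2BP2 shRNA replicate 2 left 3. FSTL1, the lower call among members of both or neither, was lost without scramble replicate 2, IRF2BP2 shRNA replicate 1 or IRF2BP2 shRNA replicate 2 (edgeR adjusted p = 0.0521, 0.140 and 0.125).

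**Figure D1:**
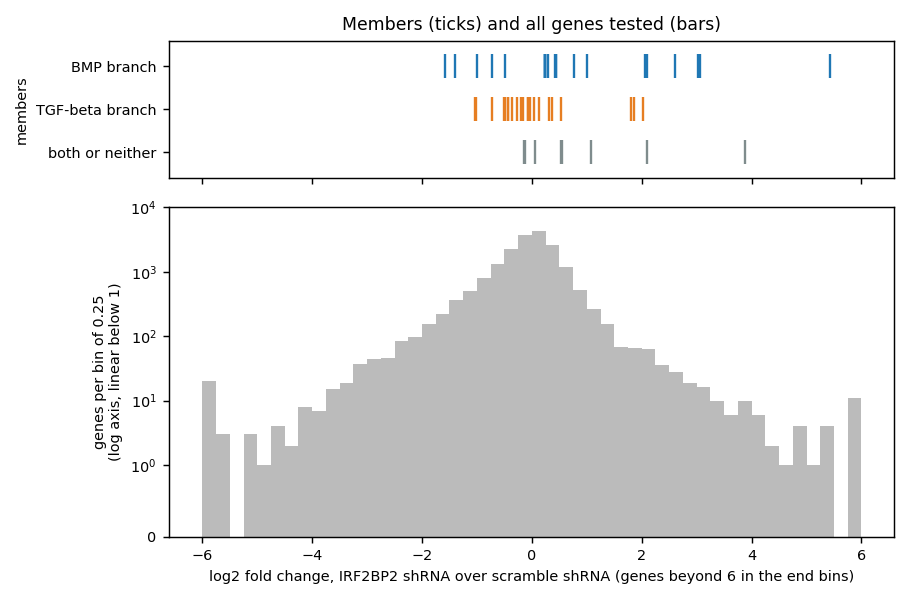
Log2 fold changes (IRF2BP2 shRNA over scramble) of the tested members as ticks, in rows for the BMP branch, the TGF-beta branch and members of both or neither, above a histogram of all 19093 genes tested (bins of 0.25, vertical axis logarithmic above 1). The BMP branch has its median at 0.42 and reaches 5.42 at BMP6, which passed the filter only through the IRF2BP2 shRNA group. The TGF-beta branch has its median at -0.12.

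Promoter windows are printed for the members that rose at least 4-fold, had at least 1 CPM, have a single RefSeq start and hold at most 30 bases of annotated exon in the window, which left BMP6, TGFB1 and SMAD6. ID1, a classical BMP target outside the member list, is shown beside them. Each run is the 250 bases before the RefSeq transcription start on GRCh38.p14, written 5′ to 3′ on the gene's own strand. Capitals mark the SMAD box GTCT, searched on both strands (AGAC on the reverse), and the GC-rich motif GGCGCC, which is the same on both strands. The windows lie at chr6:7725849-7726098 (+) for BMP6, chr19:41353923-41354172 (-) for TGFB1, chr15:66701986-66702235 (+) for SMAD6 and chr20:31605039-31605288 (+) for ID1.
BMP6: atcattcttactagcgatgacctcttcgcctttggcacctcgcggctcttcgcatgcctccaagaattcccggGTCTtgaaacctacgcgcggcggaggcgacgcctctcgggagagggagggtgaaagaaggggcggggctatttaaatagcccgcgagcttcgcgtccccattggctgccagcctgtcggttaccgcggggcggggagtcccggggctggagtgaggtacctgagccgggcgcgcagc
TGFB1: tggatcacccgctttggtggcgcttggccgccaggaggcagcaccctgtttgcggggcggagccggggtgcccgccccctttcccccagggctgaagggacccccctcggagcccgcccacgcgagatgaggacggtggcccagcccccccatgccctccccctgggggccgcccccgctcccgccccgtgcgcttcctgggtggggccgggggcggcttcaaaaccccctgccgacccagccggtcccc
SMAD6: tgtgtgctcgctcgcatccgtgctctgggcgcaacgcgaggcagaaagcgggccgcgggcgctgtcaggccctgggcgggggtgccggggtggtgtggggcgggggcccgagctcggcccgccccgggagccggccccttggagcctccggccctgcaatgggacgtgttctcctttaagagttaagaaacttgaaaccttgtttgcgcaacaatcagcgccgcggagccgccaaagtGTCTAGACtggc
ID1: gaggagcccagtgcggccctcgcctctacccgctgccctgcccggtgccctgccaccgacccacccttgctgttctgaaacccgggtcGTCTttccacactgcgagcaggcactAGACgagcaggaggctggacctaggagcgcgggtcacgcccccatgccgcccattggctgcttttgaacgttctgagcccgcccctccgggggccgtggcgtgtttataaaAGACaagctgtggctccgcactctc

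GTCT occurred 1 time in the BMP6 window, 0 times in that of TGFB1, 2 times in SMAD6 and 3 times in ID1, and GGCGCC was in none of the 4. In SMAD6 the boxes lie directly next to each other, on opposite strands, as the palindrome GTCTAGAC, close to the start. That palindrome was present in 64 of 35116 promoter windows of this length (0.182%), and SMAD6 held the single one among 89 windows of 48 members. GTCT alone is so short that 77.5% of all windows and 76.4% of the member windows held it. GGCGCC was in 16.4% of all windows and in 21 of the 89 member windows (23.6%). A match describes letters in a window and is neither a bound site nor a cause of a change.

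The BMP ligands moved in different directions. BMP6, a ligand that signals through ACVR1 and the BMP type II receptors and controls iron balance in the liver, rose from near 0, while BMP4 and BMP7, ligands of sympathetic and kidney development, fell. BMP6 (ENSG00000153162, chr6:7726797-7881422, + strand) had 9 and 3 counts with scramble and 247 and 263 counts with the shRNA, or 0.259, 0.0976, 7.72 and 8.21 CPM. The groups were far apart, and the gene ranked 13 among all rises by log2 fold change. That rank rests on few scramble counts, and BMP6 passed the filter only through the IRF2BP2 shRNA group. It was 42.8-fold higher (log2 fold change 5.42, standard error (SE) 0.33, edgeR adjusted p = 2.42e-07), and since the scramble counts were few, the log2 value moved to 6.30 without scramble replicate 1 and 4.92 without scramble replicate 2. BMP7 had 24.4 and 28.4 CPM with scramble and 9.88 and 10.2 CPM with the shRNA, and BMP4 had 4.43 and 5.11 against 1.56 and 1.62 CPM. Both lay lower in each shRNA library than in either scramble library. BMP7 was 2.63-fold lower (log2 fold change -1.39, SE 0.11, edgeR adjusted p = 1.38e-06) and BMP4 2.99-fold lower (-1.58, SE 0.23, edgeR adjusted p = 0.000213). BMP5, a close relative of BMP6 and BMP7, had 23.0 and 22.9 CPM with scramble and 33.5 and 28.6 CPM with the shRNA, a modest rise (log2 fold change 0.44, SE 0.09, edgeR adjusted p = 0.0025). BMP8B, a ligand of germ cells and brown fat, had 3.05, 4.23, 2.25 and 2.15 CPM, a difference of -0.72 on the log2 scale (edgeR adjusted p = 0.0385). Its call and that of TGFB3 were the least firm of the ligands, each held in 4 of 11 settings. The BMP8B call was lost with DESeq2 (adjusted p = 0.129), and without scramble replicate 2, IRF2BP2 shRNA replicate 1 or IRF2BP2 shRNA replicate 2. In those last 3 fits its log2 fold change was -0.47, -0.75 and -0.69. With the replicate number as a block the edgeR adjusted p of BMP8B was 0.0591. Its near-identical copy BMP8A can share its reads, and it overlaps PPIE on the opposite strand over 80 bases of exon. BMP2 had no count in any library, where 3 counts would be 0.0864 to 0.0976 CPM.

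Compared per length of exon, which allows levels of different genes to be set side by side, total BMP ligand RNA was similar while its make-up differed. The summed level of the 6 ligands was 12.5 and 13.6 RPKM (reads per kilobase of exon, scaled like CPM) with scramble and 14.1 and 13.1 RPKM with the shRNA, so the groups overlapped. BMP7 made up 36.1% and 38.5% of that sum with scramble and 13% and 14.4% with the shRNA. BMP6 went from 0.746% and 0.258% to 19.8% and 22.6%, and BMP4 from 11.5% and 12.2% to 3.61% and 4.03%. BMP5 held the greatest share in every library, 46.6% and 42.6% with scramble and 60.3% and 55.5% with the shRNA. The RPKM ratio of BMP6 to BMP7 was 0.0207 and 0.0067 with scramble and 1.52 and 1.57 with the shRNA. In CPM, without regard to length, that ratio stayed under 1, at 0.782 and 0.804 with the shRNA. With the length of the longest principal transcript in place of all exons, an alternative chosen after seeing the data, the mean shares with the shRNA were 19.8% for BMP6, 17.3% for BMP7 and 54.1% for BMP5, so BMP6 still stood above BMP7. With scramble that length put BMP7 (41.9%) above BMP5 (37.1%), so the order of those 2 genes depends on the transcript length.

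Among the TGF-beta isoforms, TGFB1 and TGFB2 rose and TGFB3 was lower. TGFB1 (ENSG00000105329, chr19:41301587-41353911, - strand) had 1.96 and 1.66 CPM with scramble and 7.53 and 7.24 CPM with the shRNA. TGFB2 had 1.78 and 1.72 against 6.10 and 6.12 CPM. For both, all shRNA values stood clear of the scramble values. The rise was 4.07-fold for TGFB1 (log2 fold change 2.03, SE 0.20, edgeR adjusted p = 1.14e-05) and 3.47-fold for TGFB2 (1.80, SE 0.21, edgeR adjusted p = 3.85e-05). TGFB1 shares 215 bases of exon with HNRNPUL1 on the opposite strand, and the library kit does not mark strand, so reads of that stretch cannot be assigned. HNRNPUL1 had a mean of 8413 counts against 148 for TGFB1, and its own log2 fold change was -0.07 (edgeR adjusted p = 0.219). TGFB3 had 9.53 and 8.88 CPM with scramble and 7.41 and 5.71 CPM with the shRNA (log2 fold change -0.49, SE 0.17, edgeR adjusted p = 0.0369). That call was lost without scramble replicate 1, scramble replicate 2 or IRF2BP2 shRNA replicate 2, with log2 fold changes of -0.43, -0.54 and -0.31. It was also lost with DESeq2 (adjusted p = 0.0952), without robust estimation (edgeR adjusted p = 0.0543) and with no filter on low counts (0.0772). Per exon length, TGFB3 made up 67.1% and 68.1% of the RNA of the 3 isoforms with scramble and 30.05% and 25.3% with the shRNA, while TGFB1 went from 20.9% and 19.3% to 46.4% and 48.8%. TGFB2 made up 12% and 12.6% with scramble and 23.6% and 25.9% with the shRNA. Per length of the principal transcript, TGFB1 (41.2%) and TGFB3 (39.9%) had nearly equal mean shares with the shRNA. The summed RPKM of the 3 isoforms per exon length was 2.89 and 2.66 with scramble and 5.02 and 4.59 with the shRNA.

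Of the activin and growth differentiation factor ligands tested, GDF15 was called and GDF11, INHBA and INHBE were not. GDF11, which acts through activin receptors and SMAD2 and SMAD3, had the highest level of these per exon length, with 79.2, 83.1, 77.5 and 77.5 CPM (log2 fold change -0.07, edgeR adjusted p = 0.305). It overlaps SARNP on the opposite strand over 386 bases of exon. INHBA, the subunit of activin A, had 1.24 and 1.07 CPM with scramble and 0.781 and 0.843 CPM with the shRNA and did not pass the test (log2 fold change -0.51, SE 0.36, edgeR adjusted p = 0.292). INHBB, the subunit of activin B, had 0 counts in both scramble libraries and 6 and 10 counts with the shRNA, and was not tested. Against a floor of 3 counts over the scramble group (0.0458 CPM), its pooled level of 0.25 CPM was at least 5.45-fold higher. INHBE lay between 0.423 and 0.691 CPM in all 4 libraries and its groups overlapped (edgeR adjusted p = 0.823). GDF15, a distant relative that signals through the GFRAL receptor and is induced by cell stress, had 0.835 and 0.456 CPM with scramble and 9.75 and 9.46 CPM with the shRNA. It was 14.6-fold higher (log2 fold change 3.87, SE 0.26, edgeR adjusted p = 5.05e-07) and counts in neither branch.

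The 5 members that process or store ligands moved less, with a median absolute log2 fold change of 0.36 against 1.06 over the tested ligand members. BMP1, a secreted protease that cleaves procollagen and the antagonist chordin and is no BMP ligand, had 28.5 and 27.7 CPM with scramble and 41.3 and 40.6 CPM with the shRNA (log2 fold change 0.55, SE 0.07, edgeR adjusted p = 9.45e-05). The latent TGF-beta binding proteins, which tether TGF-beta to the matrix, differed from each other in direction. LTBP3, the highest of the 4 per exon length, had 95.8 and 95.7 CPM with scramble and 104 and 106 CPM with the shRNA, or 0.13 on the log2 scale (edgeR adjusted p = 0.0254). LTBP4 had 14.3, 16.9, 11.8 and 12.5 CPM (log2 fold change -0.36, edgeR adjusted p = 0.033), and LTBP2 had 1.78, 1.95, 1.22 and 0.593 CPM (-1.04, edgeR adjusted p = 0.0452). LTBP1, at 6.02, 7.09, 5.44 and 5.40 CPM, was not called (log2 fold change -0.27, edgeR adjusted p = 0.238). None of these LTBP calls held in every leave-one-out fit. Without scramble replicate 2, IRF2BP2 shRNA replicate 1 or IRF2BP2 shRNA replicate 2, the edgeR adjusted p was 0.0528, 0.0813 and 0.147 for LTBP3 and 0.219, 0.144 and 0.0766 for LTBP4. For LTBP2 the edgeR adjusted p was 0.0676 or 0.122 when scramble replicate 1 or 2 was left out and 0.284 when IRF2BP2 shRNA replicate 2 was, and its log2 fold change ran from -1.64 to -0.61. With the replicate number as a block it was 0.0535.

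GREM1 was the highest of the 3 BMP antagonists among the members. This secreted protein, gremlin, binds BMP2, BMP4 and BMP7 and keeps them from their receptors. It had 44.7 and 46.7 CPM with scramble and 62.5 and 61.7 CPM with the shRNA (log2 fold change 0.44, SE 0.06, edgeR adjusted p = 0.000111), with no overlap. CHRD, chordin, had 6 and 2 counts with scramble and 12 and 22 counts with the shRNA, all under 1 CPM. Its log2 fold change was 2.09 (SE 0.70, edgeR adjusted p = 0.0324), and the call was lost whichever of the 4 libraries was left out. The edgeR adjusted p for CHRD was 0.055 and 0.204 without scramble replicates 1 and 2 and 0.0518 and 0.300 without IRF2BP2 shRNA replicates 1 and 2, with log2 fold changes from 1.60 to 2.96. It was 0.0629 with the replicate number as a block. NOG, noggin, had 0 counts with scramble and 2 and 5 with the shRNA, and was not tested. Against the floor of 3 counts over the scramble group, its pooled 0.109 CPM was at least 2.39-fold higher. Follistatin, FST, which traps activin, had no count in any library. Its relative FSTL3 had 4.43 and 4.75 CPM with scramble and 3.19 and 3.59 CPM with the shRNA (log2 fold change -0.44, edgeR adjusted p = 0.112). FSTL1, another follistatin-like secreted protein, had 172 and 173 CPM against 158 and 158 CPM (log2 fold change -0.12, edgeR adjusted p = 0.0204), and its call was lost without scramble replicate 2 (edgeR adjusted p = 0.0521), IRF2BP2 shRNA replicate 1 (0.140) or replicate 2 (0.125).

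**Figure D2:**
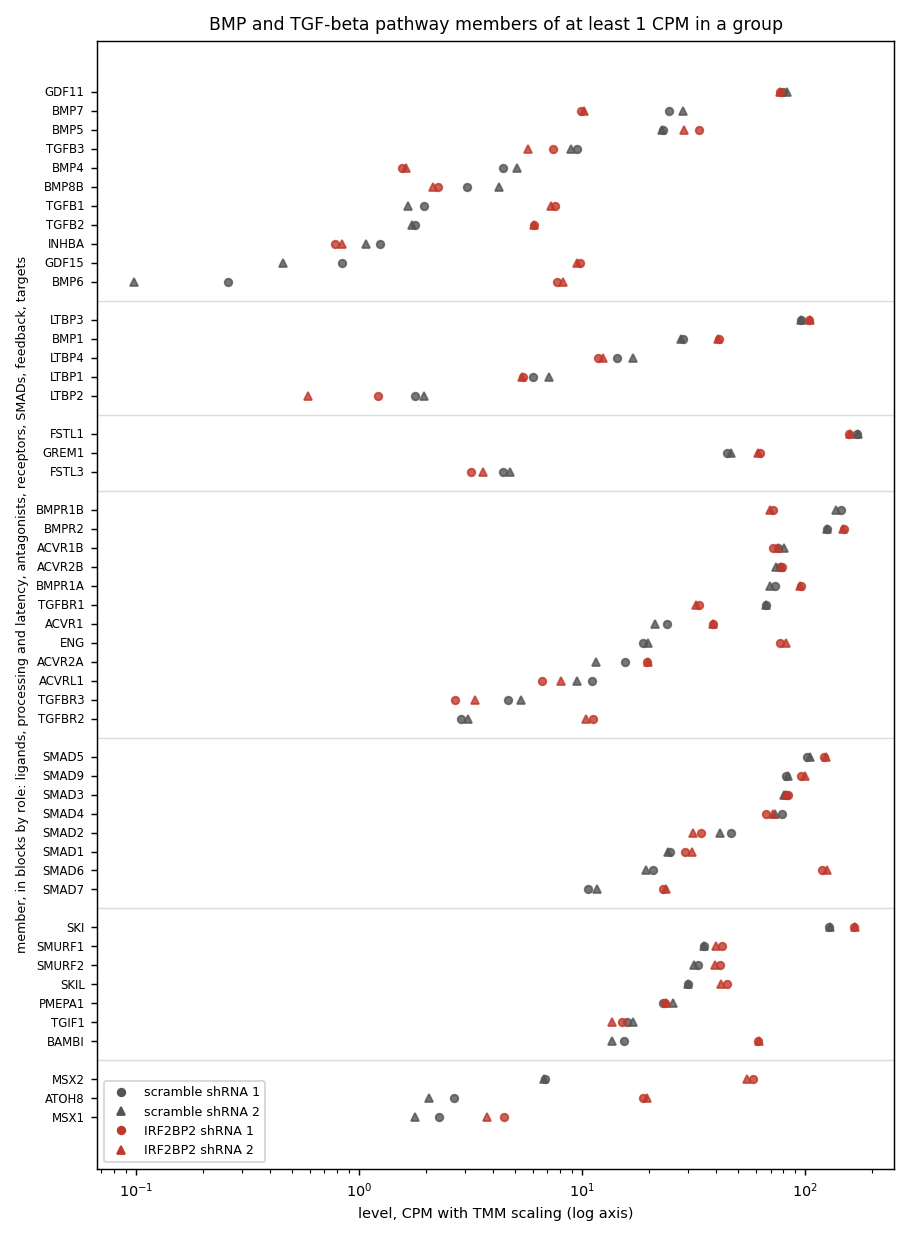
Level of each of the 49 members with at least 1 CPM in a group, in every library (CPM on a log axis; colour gives the group, marker shape the replicate), in blocks by role. BMP6, GDF15, MSX2, ATOH8 and SMAD6 are among the members with wide gaps upward, and BMP4, BMP7, BMPR1B and TGFBR1 lie lower with the shRNA.

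Of the BMP branch receptors, 4 rose and 2 fell. BMPR1B, a BMP type I receptor, had 145 and 138 CPM with scramble and 71.9 and 69.8 CPM with the shRNA (log2 fold change -0.997, SE 0.04, edgeR adjusted p = 1.77e-08). The other widely used type I receptors went up. BMPR1A had 73.1 and 69.3 against 96.3 and 94.9 CPM (log2 fold change 0.42, SE 0.05, edgeR adjusted p = 2.4e-05). ACVR1, also known as ALK2 and a main receptor for BMP6 and BMP7, had 24.1 and 21.3 against 38.5 and 38.8 CPM (1.70-fold, log2 fold change 0.77, SE 0.08, edgeR adjusted p = 2.15e-05). In all 3 genes the groups were separate. The CPM ratio of BMPR1A to BMPR1B was 0.504 and 0.503 with scramble and 1.34 and 1.36 with the shRNA, and per exon length it stayed under 1, at 0.741 and 0.752 with the shRNA. ACVRL1, the endothelial type I receptor ALK1, had 11, 9.47, 6.60 and 8.09 CPM (log2 fold change -0.48, edgeR adjusted p = 0.0308), a call lost without scramble replicate 1 (edgeR adjusted p = 0.173) or IRF2BP2 shRNA replicate 1 (0.201). The type II receptor BMPR2 had 125 and 126 against 149 and 148 CPM (log2 fold change 0.24, SE 0.04, edgeR adjusted p = 0.000263).

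ENG had the largest log2 fold change of any receptor, not far above that of TGFBR2 (1.85, SE 0.17), and their order was not tested. ENG encodes endoglin, a co-receptor of ACVRL1 best known from endothelial cells, and lies at chr9:127815012-127854756 on the minus strand (ENSG00000106991). Its level was 18.7 and 19.8 CPM with scramble and 77.2 and 82.3 CPM with the shRNA. That is 4.15-fold higher (log2 fold change 2.05, SE 0.07, edgeR adjusted p = 2.65e-09). The 8 endothelial markers summed to 4.2 and 3.84 CPM with scramble and 3.38 and 3.0 CPM with the shRNA, with PECAM1 at 0. Per exon length, ENG stood at 4.75 and 5.03 RPKM with scramble, under BMPR1B (23.0 and 21.8), ACVR1B, BMPR2, TGFBR1, BMPR1A and ACVR1. With the shRNA it was the highest receptor of the 12, at 19.6 and 20.9 RPKM, above ACVR1B (12.7 and 13.3), BMPR2 (12.5 and 12.4) and BMPR1B (11.4 and 11.1). ACVR1B, BMPR2 and BMPR1B lay too close together there for a firm order. Among the 4 BMP type I receptors per exon length, BMPR1B made up 61.1% and 62.2% with scramble and 37.0% and 36.0% with the shRNA. ACVR1 went from 16.1% and 15.2% to 31.3% and 31.7%, and BMPR1A from 17.0% and 17.3% to 27.4% and 27.1%. By the principal transcript, mean shares with the shRNA were 34.6% for BMPR1B, 33.3% for ACVR1 and 22.3% for BMPR1A. The summed type I level was 37.6 and 35.1 RPKM with scramble and 30.8 and 30.7 RPKM with the shRNA.

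In the TGF-beta branch the type I and type II receptors moved in opposite directions. TGFBR1, the type I receptor, had 66.8 and 66.9 CPM with scramble and 33.6 and 32.5 CPM with the shRNA (2.02-fold lower, log2 fold change -1.02, SE 0.06, edgeR adjusted p = 2.38e-07). TGFBR2, the type II receptor that binds TGF-beta first, had 2.88 and 3.09 against 11.2 and 10.4 CPM (3.61-fold higher, log2 fold change 1.85, SE 0.17, edgeR adjusted p = 4.67e-06). The CPM ratio of TGFBR2 to TGFBR1 was 0.0431 and 0.0462 with scramble and 0.333 and 0.320 with the shRNA, so TGFBR2 stayed the less abundant receptor in every library; this also held per exon length, at ratios of 0.485 and 0.466 with the shRNA. TGFBR3, betaglycan, a co-receptor that presents TGFB2, had 4.63 and 5.30 against 2.69 and 3.31 CPM (log2 fold change -0.73, SE 0.21, edgeR adjusted p = 0.018). Its call was lost without scramble replicate 2 (edgeR adjusted p = 0.0824) or IRF2BP2 shRNA replicate 1 (0.132). ACVR1B, the activin type I receptor ALK4, had 75.4, 80.8, 72.0 and 75.9 CPM, and its groups overlapped (log2 fold change -0.08, edgeR adjusted p = 0.281).

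The activin type II receptors, used by both branches, differed little. ACVR2B had 77, 74.3, 79.0 and 77.8 CPM (log2 fold change 0.05, edgeR adjusted p = 0.437). ACVR2A had 15.6, 11.6, 19.5 and 19.7 CPM and was called higher (log2 fold change 0.52, SE 0.14, edgeR adjusted p = 0.0103), but not without IRF2BP2 shRNA replicate 2 (edgeR adjusted p = 0.0516). The scramble libraries stood further apart than the shRNA libraries. ACVR2A shares 430 bases of exon with ORC4 on the opposite strand, which had a mean of 1404 counts against 538 and fell (log2 fold change -0.71, edgeR adjusted p = 7.51e-06).

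**Figure D3:**
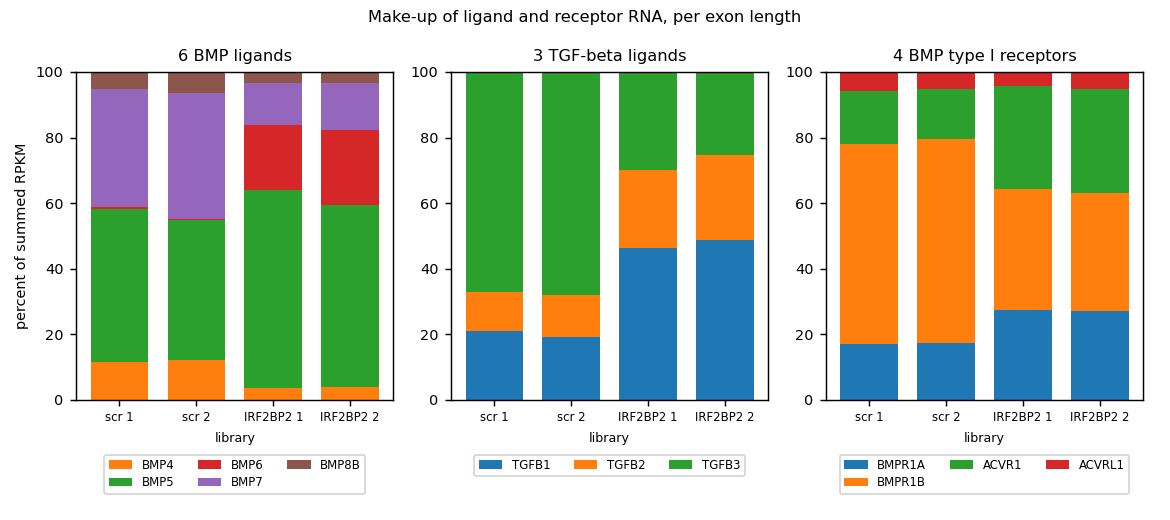
Share of each gene in the summed RPKM (level per exon length) of the 6 BMP ligands, the 3 TGF-beta isoforms and the 4 BMP type I receptors, as stacked bars to 100% for each library. BMP7 and BMP4 give way to BMP6 and BMP5, TGFB3 to TGFB1 and TGFB2, and BMPR1B to BMPR1A and ACVR1.

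The receptor-regulated SMADs of the BMP branch were all slightly higher, and those of the TGF-beta branch were not. SMAD1 had 24.8 and 24.3 CPM with scramble and 28.9 and 31.0 CPM with the shRNA (log2 fold change 0.29, edgeR adjusted p = 0.0134), and that call did not survive leaving out IRF2BP2 shRNA replicate 2 (edgeR adjusted p = 0.127). SMAD5 had 102, 106, 122 and 124 CPM (log2 fold change 0.24, edgeR adjusted p = 0.000431), and SMAD9 had 82.0, 84.1, 95.6 and 99.9 CPM (0.24, edgeR adjusted p = 0.00122). None of these 3 reached 1.5-fold. SMAD2, the mediator of TGF-beta and activin signals, had 46.5 and 41.7 against 34.3 and 31.3 CPM (log2 fold change -0.43, SE 0.08, edgeR adjusted p = 0.00132). SMAD3 had 82.3, 80.1, 84.1 and 81.9 CPM with overlapping groups (log2 fold change 0.03, edgeR adjusted p = 0.63), a direction that turned to -0.018 with upper quartile scaling. SMAD4, the partner shared by both branches, had 79.2, 73.6, 66.6 and 71.6 CPM (log2 fold change -0.15, edgeR adjusted p = 0.064). SMAD4 was called lower in 4 of 12 other settings. These were the fits without scramble replicate 2 or IRF2BP2 shRNA replicate 2, upper quartile scaling (edgeR adjusted p = 0.0183) and a mean of at least 10 CPM. Its log2 fold change ran from -0.195 to -0.083 when single libraries were left out.

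Both inhibitory SMADs rose. SMAD6, which acts mainly on the BMP branch by blocking type I receptors and SMAD1, had 20.7 and 19.3 CPM with scramble and 119 and 125 CPM with the shRNA (ENSG00000137834, chr15:66702228-66782848, + strand). It was 6.09-fold higher (log2 fold change 2.61, SE 0.06, edgeR adjusted p = 1.38e-10) and is the member whose promoter window holds the palindrome shown above. Relative to SMAD1 its CPM ratio was 0.835 and 0.794 with scramble and 4.11 and 4.04 with the shRNA. SMAD7, which inhibits both branches, had 10.7 and 11.7 CPM against 23.0 and 23.9 CPM, a rise of 2.10-fold (log2 fold change 1.07, SE 0.10, edgeR adjusted p = 7.23e-06). Both SMAD6 and SMAD7 stood clear of the scramble range in both shRNA libraries.

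Among feedback regulators and corepressors, 5 of 7 rose and none was called lower. BAMBI, a pseudoreceptor that resembles a type I receptor without a kinase, had 15.4 and 13.6 CPM with scramble and 61.6 and 62.4 CPM with the shRNA (4.27-fold higher, log2 fold change 2.09, SE 0.08, edgeR adjusted p = 7.27e-09). The SMAD corepressors SKI and SKIL rose by less. SKI had 128 and 129 against 165 and 167 CPM (log2 fold change 0.37, edgeR adjusted p = 1.2e-05), and SKIL, itself a TGF-beta target, had 29.9 and 29.9 against 44.5 and 42.1 CPM (0.53, edgeR adjusted p = 0.000112). The ubiquitin ligase SMURF2 had 33.2 and 31.7 against 41.6 and 39.3 CPM (log2 fold change 0.32, edgeR adjusted p = 0.00439), and shares 167 bases of exon with CEP95 on the opposite strand. SMURF1, the ligase first found with SMAD1 and SMAD5, had 35.1 and 35.4 against 42.6 and 40.1 CPM (log2 fold change 0.23, edgeR adjusted p = 0.0226). The SMURF1 call was lost without scramble replicate 2 (edgeR adjusted p = 0.0507) or IRF2BP2 shRNA replicate 1 (0.141). SMURF1 shares 735 bases with TRRAP on the opposite strand, which had a mean of 6179 counts against 1238 and rose itself (log2 fold change 0.38, edgeR adjusted p = 1.55e-05). The share of reads from that partner was not tested. PMEPA1, a classical TGF-beta-induced inhibitor, had 23.2, 25.5, 23.5 and 23.8 CPM with overlapping groups (log2 fold change -0.04, edgeR adjusted p = 0.766). TGIF1, a corepressor of SMAD2, had 16.0, 17.0, 15 and 13.6 CPM (log2 fold change -0.20, edgeR adjusted p = 0.16).

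All 3 target transcription factors of the BMP branch rose. MSX2, a homeobox gene induced by BMP in neural crest and bone, had 6.85 and 6.74 CPM with scramble and 58.4 and 54.7 CPM with the shRNA. ATOH8, a helix-loop-helix factor induced by BMP in endothelium and liver, had 2.68 and 2.05 against 18.8 and 19.6 CPM. Both were several times above the scramble range in each shRNA library. The rise was 8.32-fold for MSX2 (log2 fold change 3.06, SE 0.09, edgeR adjusted p = 6.35e-10) and 8.09-fold for ATOH8 (3.02, SE 0.16, edgeR adjusted p = 7.22e-08). MSX1 had 2.27 and 1.79 against 4.47 and 3.75 CPM (log2 fold change 1.01, SE 0.24, edgeR adjusted p = 0.00588), a call that narrowly missed the threshold without IRF2BP2 shRNA replicate 1 (edgeR adjusted p = 0.0505).

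**Figure D4:**
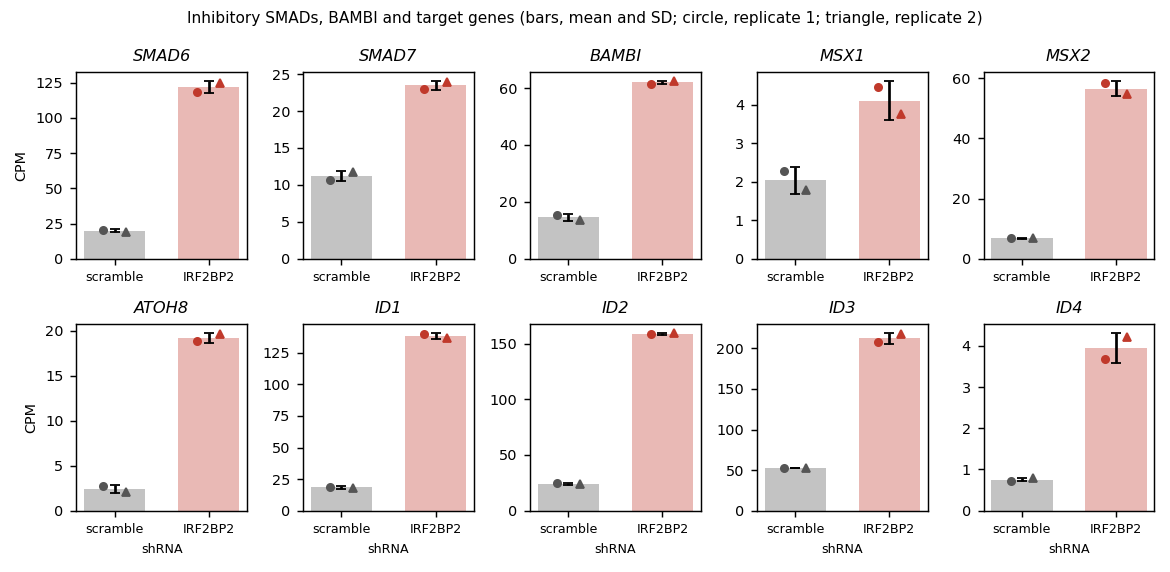
CPM in each library (circle, replicate 1; triangle, replicate 2) with the group mean as a bar and its SD as an error bar, for inhibitory SMADs, BAMBI and target genes. In every panel both IRF2BP2 shRNA libraries lie above both scramble libraries, as for SMAD6 at 119 and 125 against 20.7 and 19.3 CPM.

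Further genes of the BMP pathway also changed. From a list of 38 further ligands, antagonists, co-receptors and targets, 25 were tested, of which 15 rose and 4 fell while 6 did not pass the test, against 20.6% higher and 21.4% lower over all genes tested. The 4 lower calls are thus no larger a share than over all genes. The median log2 fold change over the 25 was 0.33, and this list was also chosen with earlier results of these data known. The ID genes, helix-loop-helix inhibitors of differentiation and immediate targets of SMAD1 and SMAD5, all rose. ID1 had 19.0 and 17.7 CPM with scramble and 140 and 137 CPM with the shRNA (7.56-fold, log2 fold change 2.92, SE 0.06, edgeR adjusted p = 3.14e-11). ID2 had 24.8 and 23.6 against 158 and 160 CPM (log2 fold change 2.72, edgeR adjusted p = 3.11e-11), and ID3 had 52.4 and 52.6 against 208 and 217 CPM (2.02, edgeR adjusted p = 4.66e-11). ID4, at 0.720, 0.781, 3.69 and 4.21 CPM, rose by 2.39 on the log2 scale (edgeR adjusted p = 3.37e-05). The 4 genes added up to 96.9 and 94.7 CPM with scramble and 510 and 518 CPM with the shRNA. The ligand gene GDF6 (log2 fold change 1.60, edgeR adjusted p = 0.00126), CRIM1, a membrane protein that binds BMPs (1.53, edgeR adjusted p = 8.68e-05), and HEY1, a repressor induced by BMP and Notch (1.34, edgeR adjusted p = 3.56e-07), were also higher, with no overlap of the groups. HEY1 went from 24.9 and 21.0 to 58.8 and 57.4 CPM. The 4 genes called lower were SMOC1, SMOC2, RGMB and TWSG1, named here after their values were seen. SMOC1, a matrix protein that antagonises BMP, had no count with the shRNA and 0.947 CPM pooled over the scramble group, at least 20.2-fold lower by a floor of 3 counts over the group. Without scramble replicate 1, scramble replicate 2 or IRF2BP2 shRNA replicate 1, 2 of the 4 lower calls were left.

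The TGF-beta list of 51 further genes gave 38 tested, and 22 were higher, 9 lower and 7 short of the threshold, beside the same 20.6% and 21.4% of all genes. The share called lower was near that of all genes. Their median log2 fold change was 0.27, in a list also chosen with earlier results of these data known. Those with large rises and at least 5 CPM included matrix, contractile and signalling genes. TGFBI, a TGF-beta-induced matrix protein, had 10.9 and 12.1 against 88.2 and 87.0 CPM (7.63-fold, log2 fold change 2.93, edgeR adjusted p = 3.44e-10). COL1A1, a chain of type I collagen, had 6.77 and 7.0 against 33.2 and 28.7 CPM (log2 fold change 2.17, edgeR adjusted p = 4.83e-08). COL1A2, another chain of that collagen and named here after its values were seen, went the other way and was not tested. It had 8 and 10 counts with scramble and 0 in both shRNA libraries, at least 5.87-fold lower by the floor of 3 counts over the group. The kinase gene NUAK1 (log2 fold change 1.95, edgeR adjusted p = 1.39e-06) and SNAI2, a repressor of epithelial genes (1.87, edgeR adjusted p = 7.84e-08), rose as well. ACTA2, smooth muscle actin, had 1.61 and 1.92 against 8.47 and 8.18 CPM (log2 fold change 2.24, edgeR adjusted p = 4.22e-06), and overlaps ACTA2-AS1 and FAS on the opposite strand, which had means of 19.5 and 21 counts against 162. Among the genes called lower, named here after their values were seen, KANK4 (log2 fold change -1.80, edgeR adjusted p = 0.00193), the ubiquitin ligase gene NEDD4L (-0.97, edgeR adjusted p = 3.83e-05), the collagen gene COL4A1 (-0.83, edgeR adjusted p = 9.08e-05) and TSC22D1 (-0.78, edgeR adjusted p = 7.55e-07) had the largest falls. COL4A1 went from 18.7 and 18.4 to 10.8 and 10.1 CPM. Several of the genes named from this list are also expressed in fibroblasts, and a part of such cells in these changes was not tested. The 10 fibroblast and mesenchyme markers summed to less with the shRNA (454 and 449 CPM) than with scramble (565 and 549 CPM). Of them, 5 were lower and 2 higher (COL1A1 and COL3A1). The other 3, FAP at 0, COL1A2 and POSTN, were not tested.

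**Figure D5:**
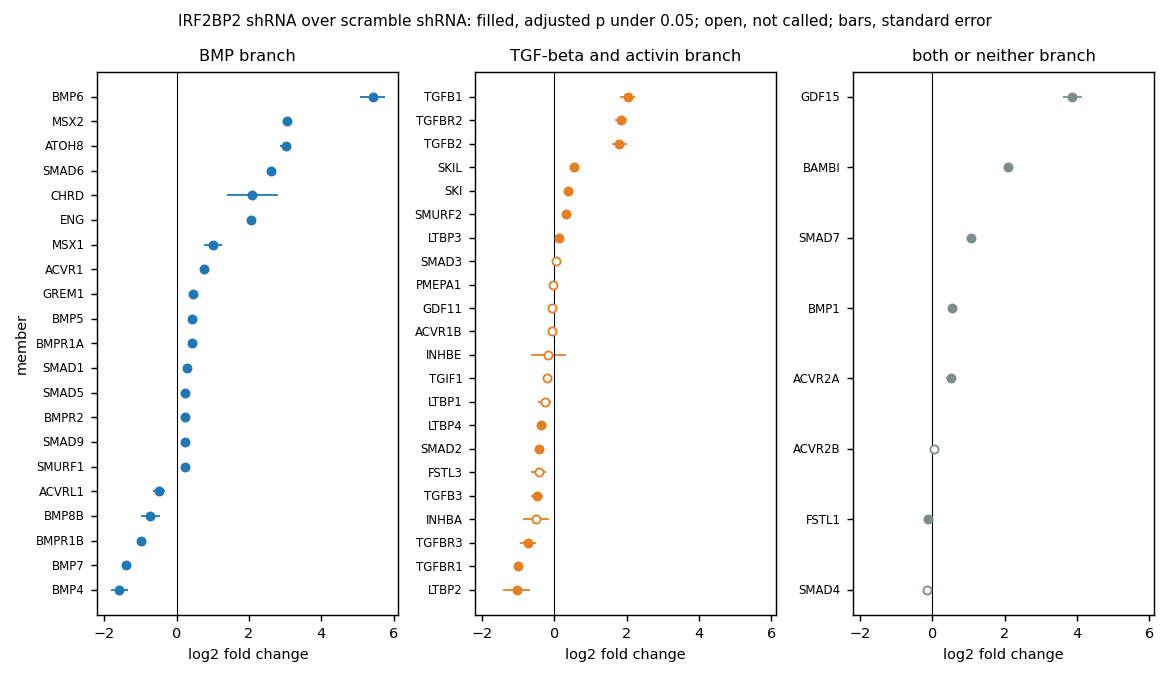
Log2 fold change (IRF2BP2 shRNA over scramble) of each tested member with its standard error, sorted within the BMP branch, the TGF-beta branch and both or neither; filled points passed the test and open points did not. In the BMP branch all 21 points are filled and 16 lie above 0, while 9 of 22 in the TGF-beta branch are open.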

How the data were processed

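The data were raw read counts per gene in 4 libraries, as deposited by the authors, and each library has its own column. The labels' protocols give TRIzol for the extraction of total RNA and an Illumina TruSeq kit, without strand marking, for the libraries. Reads were aligned with HISAT2 2.2.0 to hg38, per the submitters' processing notes, while the sources used here do not give the counter or the annotation. Control columns carry the abbreviation NC, which no label spells out. They were taken as the scramble libraries because the series has 2 groups, and replicate numbers were matched by name.

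Tests used edgeR 4.0.16 under R 4.3.3 (filterByExpr by group, TMM scaling, quasi-likelihood F-test with robust estimation, two-sided, Benjamini-Hochberg over 19093 genes, threshold 0.05). A member passed the filter at 0.313 CPM or more in at least 2 libraries. Standard errors (SE) were obtained by dividing the size of the log2 fold change by the root of the F statistic. Alternatives included DESeq2 1.42.0, other scalings and filters, and leaving out each library. The procedure was checked on simulated counts. Replicates differed by more than sampling noise (chi-square per degree of freedom 7.01 and 5.26). Exon lengths and overlaps came from GENCODE release 29 on GRCh38, promoter windows from RefSeq.

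The members, branches and lists were chosen with earlier results of these data known. Values are given for each member that reached 1 CPM in either group, and by counts or range below that. From each further list the text names the 6 called genes with the largest change, a mean of 5 CPM or more in either group and no overlap, plus ID1 to ID4. A gene that this rule took is not reported here. No set was tested.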

Additional observations from a re-analysis of the deposited data

How the results depend on the processing

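Of the 40 member calls, 27 held in each setting that gave a value other than the test against 1.5-fold, and 15 held there too. Tested against a change of 1.5-fold (glmTreat), 545 genes were higher and 1074 lower, with 5 BMP branch members higher and 3 lower, 3 TGF-beta branch members higher and 1 lower, and 3 members of both or neither higher and 0 lower. In that test 8 further BMP genes were higher and 1 lower, and 11 further TGF-beta genes were higher and 3 lower. With no filter on low counts the lower calls were 3 in the BMP branch, 3 in the TGF-beta branch, 0 in both or neither and 2 of the further BMP genes. With a mean of at least 10 CPM, which leaves fewer members tested, lower calls were 2, 3, 2 and 2 in the same order, and higher calls were 3 in the TGF-beta branch and 14 of the further TGF-beta genes. DESeq2 called 3, 2, 0 and 2 lower in that order, and upper quartile scaling 2 in both or neither. Leaving out 1 library gave 3 to 4 lower in the BMP branch, 2 to 4 in the TGF-beta branch, 0 to 1 in both or neither and 2 to 3 of the further BMP genes. The cause of these shifts was not tested.

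No called member changed direction in any setting. The log2 fold change of INHBE, which was not called, ran from -0.46 to 0.25 when single libraries were left out, and that of PMEPA1 from -0.096 to 0.034. That of SMAD3 turned to -0.018 with upper quartile scaling and -0.0087 with at least 10 CPM. Replicate numbers share no stated batch, and deviations of same-numbered libraries correlated at r = 0.0841 across genes, so they were not taken as pairs. A fit with the replicate number as a block gave 3952 genes higher and 3950 lower and lost 3 member calls (BMP8B, LTBP2 and CHRD). With 2 libraries per group, members under about 1 CPM could not be compared with precision.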
